A study of Homo sapiens with 8 samples.

Results

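Of the genes that handle cholesterol export and its nuclear receptor LXR, 1 rose and 1 fell when 4 renal carcinoma lines were given an inhibitor of stearoyl-CoA desaturase. ABCA1, the plasma membrane pump that loads cholesterol onto apolipoprotein A-I, was 2.78-fold higher. NPC2, the soluble lysosomal protein that hands cholesterol to NPC1, was 1.82-fold lower. The other genes of the list that were bright enough to be tested did not pass. The list held 10 genes: the receptor genes NR1H3 (LXRα) and NR1H2 (LXRβ), the LXR targets ABCA1, ABCG1, MYLIP, APOE, SMPDL3A and PLTP, and the lysosomal exit genes NPC1 and NPC2. All probe sets that the platform annotation gives to exactly 1 of these genes, by current or former symbol, were taken. That gave 26 of the 54675 probe sets on the array, for 9 of the 10 genes and of 19775 genes in all. NR1H2 had no probe set under this rule and was not analysed here. Of the 26, 17 were bright enough to be tested, and they covered 8 genes. All 4 probe sets of ABCG1 were too dim.

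The 4 lines ACHN, CAKI1, CAKI2 and A498 are long-established human kidney tumour lines, bought from ATCC and labelled as clear cell renal cell carcinoma. In each line, cells treated for 24 h with A939572 at 75 nM were set against cells given its solvent DMSO for 24 h, all in medium with serum, with 1 array each. That made 4 arrays against 4. The labels name no separate cultures within a line, so the 4 lines are the replicates.

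PAX8, a transcription factor of renal epithelium, read 4578 to 8278 units in A939572 and 4079 to 5318 units in DMSO, higher in A939572 by 0.38 ± 0.19 on the log2 scale (SD, n = 4 lines; limma adjusted p = 0.032). Of 7 renal epithelial markers tested, 1 was higher and 2 were lower, with a median of -0.43. LHX1 fell by 1.65 ± 0.70 (adjusted p = 0.00556). Its mean over the 8 arrays (6.427, log2) was just above the brightness filter (6.41), and its A939572 mean was below it. LHX1 was thus let in by its DMSO arrays. It was not tested with an offset of 1, with the stricter filter, or without CAKI2, A498 or CAKI1. KRT19 fell by 0.97 ± 0.84 (adjusted p = 0.0209). KRT19 did not pass without A498 (-0.94, adjusted p = 0.0619) or as the mean of its probe sets (-0.51, adjusted p = 0.181). The summed signal of these markers ran from 13903 to 42272 units in A939572 and from 21529 to 53700 units in DMSO, and its part in the results was not tested. Of the clear cell markers, 1 of 3 tested rose, VEGFA by 0.98 ± 0.55 (adjusted p = 0.0041), and their median was 0.06. EGLN3 had -0.71 ± 1.07 (adjusted p = 0.154) and VIM 0.06 ± 0.11 (adjusted p = 0.594). CA9 had no probe set with 1 symbol. Of the fibroblast markers 4 of 5 were below the filter and COL1A1 fell by 1.04 ± 0.36 (adjusted p = 0.00312), but as the mean of its probe sets did not pass (-0.42, adjusted p = 0.161). Of the endothelial markers 3 of 4 were below it, and PECAM1 had -0.21 ± 0.20 (adjusted p = 0.453). Of the leukocyte markers with a probe set, 4 of 6 lay below the brightness filter, PTPRC among them, and their summed signal ran from 199 to 716 units in A939572 and from 232 to 467 units in DMSO. CSF1R, tested, had -0.42 ± 0.35 (adjusted p = 0.304), with its A939572 mean (6.24) below the filter. ITGAM, the other one tested, had 0.23 ± 0.48 (adjusted p = 0.496). NR1H3, ABCG1 and APOE are strongly expressed in macrophages, so the level of the leukocyte markers stands beside their values. For ACTB, the 3′ over 5′ signal ratio of the control probe sets, which is higher where RNA or cDNA is shorter, was 3.02 to 4.22 in A939572 and 2.12 to 2.33 in DMSO. It was higher in 4 of 4 lines. The same ratio for GAPDH was 1.01 to 1.115 in A939572 and 0.962 to 1.05 in DMSO, a log2 difference of 0.08 ± 0.05, against 0.64 ± 0.25 for ACTB. The GAPDH ratio was also higher in 4 of 4 lines. The part of these ratios in the results below, all read from these arrays, was not tested.

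LXRα and LXRβ are nuclear receptors that bind oxysterols and sit on DNA as partners of RXR, at spaced repeats of a short motif. When a cell holds much cholesterol they switch on exporters (ABCA1, ABCG1), lipid carriers and lipoprotein remodelling proteins (APOE, PLTP), and MYLIP, a ubiquitin ligase also called IDOL that sends the LDL receptor to degradation. Cholesterol that enters by lipoproteins leaves the lysosome through NPC2 and then NPC1. A939572 blocks the enzyme that makes oleate and palmitoleate, and the desaturase gene itself is a known LXR target.

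Signals below are the deposited values in arbitrary units, which compare arrays within a probe set and not probe sets with each other. Differences are A939572 minus DMSO on quantile normalized log2(signal + 16), with the SD over 4 lines. The offset understates the change of dim probe sets. Calls are limma tests with the cell line as a block and Benjamini-Hochberg adjustment at 0.05 over all 27307 probe sets tested. The RNA came from whole cultures, so a change in every cell and a change in some of the cells cannot be told apart. Among the 17 tested probe sets of the list, 2 rose and 1 fell, or 3 called. Over all probe sets tested, 26.0% were called, 13.0% higher and 13.0% lower. Counted by the brightest probe set of each gene, 1 of 8 rose and 1 of 8 fell, while of all 12093 genes tested 30.1% were called, 14.4% higher and 15.7% lower. The share of genes called was therefore close to that of the array as a whole. The median difference of the 8 genes was 0.11, and that of all genes tested was -0.03.

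**Figure D1:**
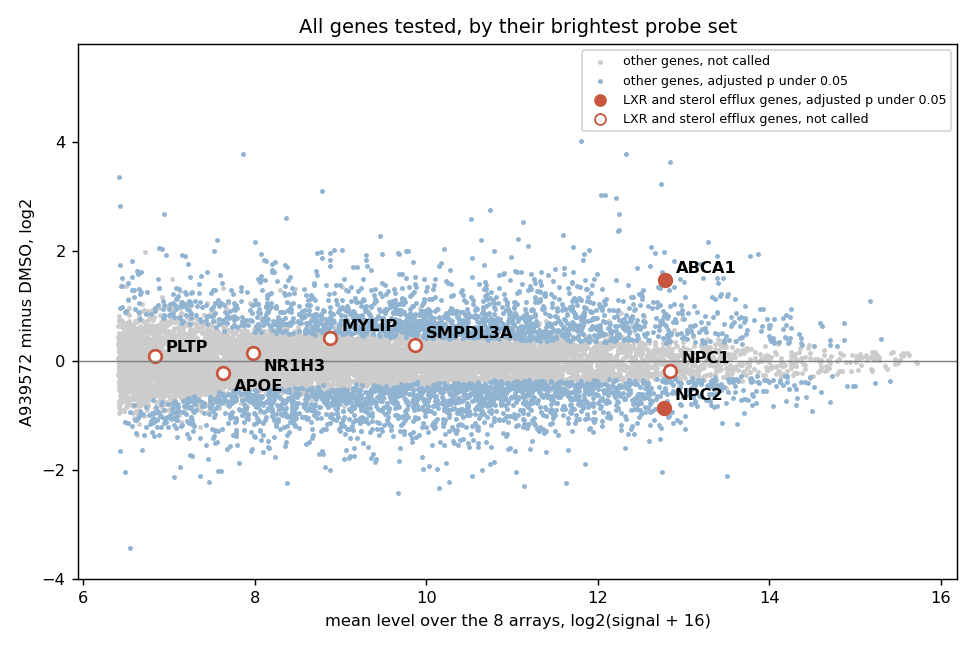
Mean level over the 8 arrays (horizontal, log2(signal + 16)) against the A939572 minus DMSO difference (vertical, log2) for the 12093 genes tested, each by its brightest probe set. Filled red points are ABCA1 (1.48) and NPC2 (-0.86), which passed the test, open red points are the 6 genes of the list that did not, and blue points are other genes that passed.

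ABCA1 had the largest change among the tested genes of the list. In its brightest probe set (203505_at) the signal after A939572 was 16713 units in CAKI1, 16431 in A498, 14553 in CAKI2 and 4434.5 in ACHN. In DMSO it was 5299.7 units in CAKI1, 7478 in A498, 7115 in CAKI2 and 1161.5 in ACHN. Every treated array was above the DMSO array of its own line, as in 22.0% of all probe sets tested, but the groups overlap, since treated ACHN cells stayed below the DMSO level of the other lines. The log2 difference was 1.48 ± 0.38 (SD, n = 4 lines; limma adjusted p = 0.000226). By line it was 1.92 in ACHN, 1.65 in CAKI1, 1.26 in A498 and 1.07 in CAKI2. The second probe set (203504_s_at) gave 1.44 ± 0.52 (limma adjusted p = 0.000624), with the lines in the same order. ACHN, with the lowest ABCA1 in DMSO, had the largest rise, and the gap between the highest and lowest line was 4.07-fold in A939572 and 6.44-fold in DMSO. No test of that narrowing is possible with 1 pair of arrays a line. The rise in a line is taken from the same DMSO array, so a low reading there by itself makes the rise larger. The other 2 ABCA1 probe sets were below the filter, with signals of 5.52 to 158 units in A939572 and 3.44 to 73.2 units in DMSO. Without the cell line as a block, in which case the spread between lines counts as error, neither ABCA1 probe set passed (adjusted p = 0.38 and 0.417).

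By the brightest probe set of each gene, ABCA1 had a larger difference than the 7 other tested genes in 4 of 4 lines. The dimmer tested APOE probe sets had larger ones in A498, at 2.49 and 2.03 against 1.26 for ABCA1. In the other lines theirs were smaller than that of ABCA1. ABCG1, too dim to be tested, had a larger one than ABCA1 in CAKI2 (1.23). The gap to MYLIP, also an LXR target, was 1.07 ± 0.20, and the gap to SMPDL3A was the most uneven, from 0.24 in CAKI2 to 1.98 in ACHN. Each of 7 such gaps had an exact 2-sided sign-flip p = 0.125 over the 4 lines, the smallest that 4 pairs allow (adjusted p = 0.125 over 8 comparisons). These gaps were computed after the values had been seen.

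The promoters of the members were searched for the repeat that LXR binds and for 3 other elements. RefSeq starts with sequence were at hand for 8 of the 10 genes, and not for the LXR targets ABCG1 and SMPDL3A. There were 15 starts in all, on build GRCh38.p14, each from 250 bases before to 50 after the start. Searched on both strands were a direct repeat of AGGTCA spaced by 4 bases (DR4, at most 2 mismatches), the E-box CACGTG, the GC box GGGCGG and the ATF4 and C/EBP element TGATGNAAT. The promoters of the riser ABCA1 (chr9:104928106-104928405, minus strand), of the LXR target MYLIP (chr6:16128836-16129135, plus strand) and of the faller NPC2 (chr14:74493463-74493762, minus strand) are shown 5′ to 3′ along the gene, with every match in capitals.
ABCA1: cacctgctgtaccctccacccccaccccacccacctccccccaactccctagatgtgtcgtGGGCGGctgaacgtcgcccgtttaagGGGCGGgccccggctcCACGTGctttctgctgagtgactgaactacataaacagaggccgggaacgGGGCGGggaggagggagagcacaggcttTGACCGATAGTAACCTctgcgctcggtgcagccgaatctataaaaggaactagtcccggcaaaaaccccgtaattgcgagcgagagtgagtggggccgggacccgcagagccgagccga
MYLIP: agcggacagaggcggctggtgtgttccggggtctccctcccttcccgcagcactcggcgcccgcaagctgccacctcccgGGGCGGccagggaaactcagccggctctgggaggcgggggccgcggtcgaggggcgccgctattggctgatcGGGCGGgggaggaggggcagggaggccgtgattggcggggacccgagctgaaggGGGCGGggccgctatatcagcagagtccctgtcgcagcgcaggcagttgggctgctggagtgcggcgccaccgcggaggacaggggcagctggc
NPC2: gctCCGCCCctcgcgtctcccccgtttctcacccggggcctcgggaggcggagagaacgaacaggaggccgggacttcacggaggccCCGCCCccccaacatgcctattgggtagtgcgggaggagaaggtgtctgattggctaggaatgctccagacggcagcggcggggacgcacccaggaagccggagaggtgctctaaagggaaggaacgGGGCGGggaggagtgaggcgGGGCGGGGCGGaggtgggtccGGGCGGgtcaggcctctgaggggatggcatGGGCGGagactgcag
In ABCA1 the long run of capitals, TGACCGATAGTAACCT, at -69 to -54 from the start, is the DR4 match. Read on the other strand it is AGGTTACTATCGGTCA, with 2 mismatches. It was the only DR4 match in the 15 member promoters, and 2.34% of all 35116 promoters held one. The E-box CACGTG lay at -147 to -142 in ABCA1, and a second was in PLTP. It occurred in 7.26% of all promoters. GC boxes, the other capitals, numbered 3 in ABCA1, 3 in MYLIP and 7 in NPC2. A GC box was in 11 of the 15 member promoters, at 1 start or more of all 8 genes, against 45.0% of all promoters. The ATF4 and C/EBP element was found in 0 of the 15, and in 0.991% of all promoters. These are matches of letters in a short window and not measured binding, and the windows of different starts of a gene can overlap. Sequence outside the windows was not searched, so the lack of a match cannot set other members apart from ABCA1. Any part of the matches in the differences was not tested.

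ABCG1, which exports cholesterol to HDL, was below the brightness filter. Its brightest probe set (204567_s_at) read 27.5, 230, 68.8 and 31.9 units in A939572 (ACHN, CAKI2, A498, CAKI1), and 25.9, 89.8, 60.0 and 5.87 units in DMSO. The treated array was the higher one in 4 of 4 lines, by 0.72 ± 0.55 on the log2 scale, with CAKI2 highest in both groups. The next probe set (211113_s_at) went the other way, lower in 4 of 4 lines, at -0.75 ± 0.65. The remaining 2 had 0.22 ± 0.62 and -0.22 ± 0.49. The ABCG1 probe sets thus disagreed at signals near the bottom of the scale. When the filter was left off, 0 of the 4 passed limma and 0 had an unadjusted p below 0.05 (adjusted p = 0.26 to 0.776).

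MYLIP had 6 probe sets, 5 of them tested, and none passed. In the brightest (223130_s_at) the signal was 588, 561, 304 and 788 units in A939572 (ACHN, CAKI2, A498, CAKI1), and 398, 499.8, 245 and 518 units in DMSO. Each line was higher when treated, but A498 treated was below 3 DMSO arrays. The difference was 0.41 ± 0.20 (limma adjusted p = 0.0758, and an unadjusted 95% interval of 0.07 to 0.75). The fourth brightest (220319_s_at) had 0.49 ± 0.32, higher in 4 of 4 lines (adjusted p = 0.0726). When arrays were instead scaled by centring their medians, both passed (adjusted p = 0.0443 and 0.0473). The other 3 tested probe sets had 0.37 ± 0.34, 0.30 ± 0.60 and -0.05 ± 0.71, and in CAKI2 all 3 were lower when treated. The dimmest, at 11.3 to 16.6 units in A939572 and 6.77 to 9.88 units in DMSO, was not tested.

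**Figure D2:**
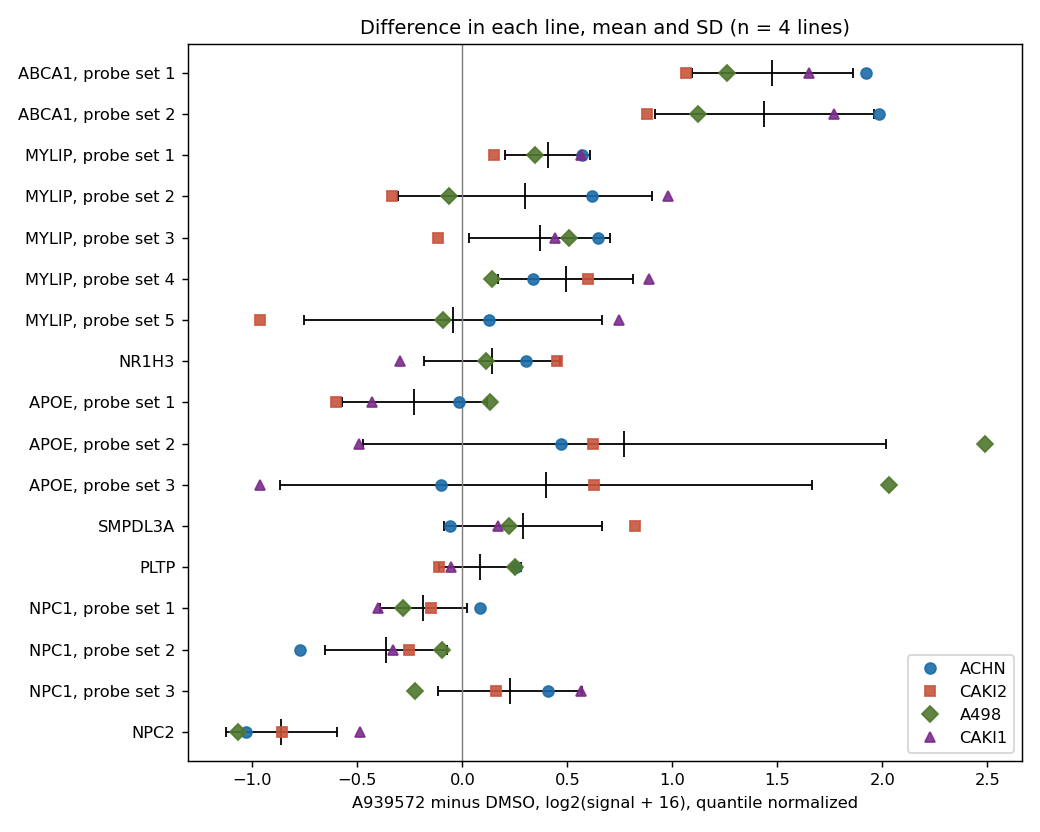
A939572 minus DMSO difference (log2(signal + 16), quantile normalized) in each line for the 17 tested probe sets, numbered from the brightest within a gene. Vertical ticks are means and horizontal bars SDs over the 4 lines. Both ABCA1 probe sets lie above 0.8 in every line, NPC2 lies below -0.4 in every line, and APOE probe sets 2 and 3 spread from below -0.4 in CAKI1 to above 2 in A498.

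The receptor gene NR1H3 (203920_at) read 247, 165, 209 and 440 units in A939572 (ACHN, CAKI2, A498, CAKI1), and 207, 118, 199 and 544 units in DMSO. It was higher in 3 lines and lower in CAKI1, the line with the most of it. The difference was 0.14 ± 0.32 (limma adjusted p = 0.617, unadjusted 95% interval -0.27 to 0.56). Among RXR partners and coregulators, 0 of 5 tested genes passed limma either way, and 1 had an unadjusted p below 0.05. Such an unadjusted p was found in 5236 of all 12093 genes tested. RXRA, which pairs with the LXRs, had the smallest p, with -0.45 ± 0.38 (adjusted p = 0.0794). Of the enzymes that make or clear oxysterols 2 were bright enough, and 0 passed, with 0 at an unadjusted p below 0.05. CYP39A1, a hydroxylase of 24-hydroxycholesterol, had -0.19 ± 0.54 (adjusted p = 0.66).

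The secreted LXR targets did not pass. APOE, the carrier apolipoprotein, had 3 probe sets that disagreed. Its brightest (212884_x_at, of a class that can match other transcripts) stayed between 119 and 239 units in A939572 and between 129 and 263 units in DMSO, with a difference of -0.23 ± 0.35 (limma adjusted p = 0.438). The second (203382_s_at) read 343, 42.8, 122 and 102 units in A939572 (ACHN, CAKI2, A498, CAKI1), and 252, 23.7, 9.28 and 150.4 units in DMSO. In A498 the treated array was thus far above a DMSO array near the bottom of the scale, and in CAKI1 the order was turned round. The third (203381_s_at) had the same split, with 82.4 units in A939572 and 8.96 units in DMSO in A498. Their differences were 0.77 ± 1.25 and 0.40 ± 1.27 (adjusted p = 0.205 and 0.534). Without A498 the third was at -0.15.

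PLTP, the phospholipid transfer protein of plasma lipoproteins, read 328, 53.7, 11.6 and 251 units in A939572 (ACHN, CAKI2, A498, CAKI1), and 282, 62.7, 8.09 and 264 units in DMSO. The groups lie on top of each other within each line, with a difference of 0.08 ± 0.20 (limma adjusted p = 0.827, unadjusted 95% interval -0.44 to 0.61). PLTP passed the brightness filter through ACHN and CAKI1, and A498 held little signal. SMPDL3A, a secreted phosphodiesterase of the acid sphingomyelinase family, read 552, 3292, 1538 and 361 units in A939572 in the same line order, and 582, 1828, 1268 and 321 units in DMSO. CAKI2, already highest in DMSO, had a difference of 0.82, and the other lines had -0.06 to 0.22. Over the 4 lines it was 0.29 ± 0.38 (adjusted p = 0.229, unadjusted 95% interval -0.08 to 0.66). Its other probe set was below 26 units on every array.

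Of the lysosomal partners, NPC2 passed and NPC1 did not. NPC2 (200701_at) read 7339.3 units in CAKI1, 5640.5 in ACHN, 4286 in A498 and 4055 in CAKI2 after A939572. In DMSO it read 10410 units in CAKI1, 11560 in ACHN, 9120.2 in A498 and 7341 in CAKI2. The groups do not overlap, though treated CAKI1 and CAKI2 in DMSO almost touch. Such separation was seen in 8.90% of all probe sets tested, and 22.6% were lower in 4 of 4 lines. The log2 difference was -0.86 ± 0.27 (limma adjusted p = 0.00104), from -1.07 in A498 to -0.49 in CAKI1. Without the cell line as a block NPC2 did not pass (adjusted p = 0.144).

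NPC1, the membrane protein that takes cholesterol from NPC2, read 9920.0, 5949.6, 6113 and 5932 units in A939572 (ACHN, CAKI2, A498, CAKI1), and 9401, 6601, 7753 and 8012 units in DMSO, in its brightest probe set (202679_at). It was lower in 3 lines and slightly higher in ACHN, at -0.19 ± 0.21 (limma adjusted p = 0.244, unadjusted 95% interval -0.43 to 0.06). Its second probe set (217584_at) was lower in 4 of 4 lines with no overlap, 219 to 243 units in A939572 and 264 to 421 units in DMSO, and did not pass (-0.36 ± 0.29, adjusted p = 0.161). The third had 0.23 ± 0.34. NPC2 fell further than NPC1 in 4 of 4 lines, by a mean gap of -0.68 ± 0.43 that shrank to -0.09 in CAKI1. The exact sign-flip p = 0.125 is again the smallest possible.

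**Figure D3:**
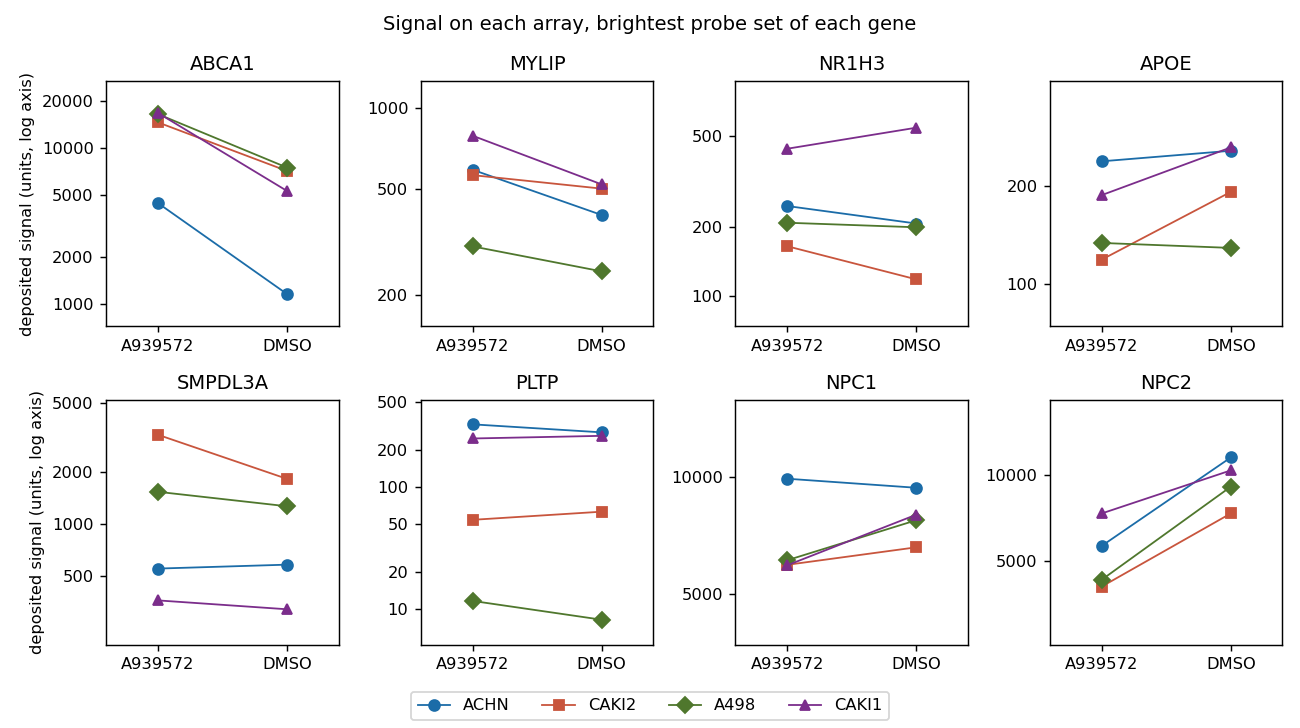
Deposited signal (units, log axis, each panel with its own range) on the 8 arrays for the brightest probe set of the 8 tested genes, A939572 left and DMSO right, 1 array per point and lines joining the 2 arrays of a cell line. ABCA1 is higher with A939572 in all 4 lines and NPC2 lower in all 4. In every gene but NPC2, ABCA1 included, the highest and lowest line are farther apart than the treatments, by their means.

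The 4 lines differed in most of these genes. By a moderated F test over lines in the same fit, 8 of 8 genes passed in their brightest probe set, against 61.0% of all genes tested, and 11 of 17 probe sets, against 54.0% of all probe sets tested. PLTP and both dimmer APOE probe sets had at least 1 line with both arrays below the brightness filter, so they were let in by their high lines and had to differ. Among the others 7 of 7 genes and 8 of 14 probe sets passed. Each line has 2 arrays, which differ in treatment. Between single pairs of lines, 28.3% of all probe sets tested passed for ACHN against CAKI2, 26.4% for ACHN against A498, 22.1% for ACHN against CAKI1, 28.8% for CAKI2 against A498, 31.7% for CAKI2 against CAKI1 and 30.9% for A498 against CAKI1. The count of genes was 5 without the DMSO array of ACHN and 5 without the A939572 array of CAKI2. ABCA1 was lowest in ACHN, 2.0 on the log2 scale below CAKI1 (limma adjusted p = 0.000194), while A498, CAKI2 and CAKI1, in that order, did not differ beyond their spread (adjusted p = 0.58 and 0.519 between neighbours). For PLTP, ACHN and CAKI1 did not differ beyond their spread (adjusted p = 0.758), and CAKI2 and then A498 lay below them and below the filter, so no gap to them is given.

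SMPDL3A had the clearest ranking, with CAKI2 above A498 by 0.83 (limma adjusted p = 0.0242), A498 above ACHN by 1.27 (adjusted p = 0.00345) and ACHN above CAKI1 by 0.66, which did not pass (adjusted p = 0.07). NR1H3 was highest in CAKI1, 1.08 above ACHN (adjusted p = 0.0172), with ACHN, A498 and CAKI2 not separated between neighbours (adjusted p = 0.556 and 0.233). In its brightest probe set MYLIP was lowest in A498, 0.85 below ACHN (adjusted p = 0.017), and its other neighbours did not differ beyond their spread. Its other tested probe sets did not pass the F test over lines (adjusted p = 0.076 to 0.45). In them ACHN and A498 did not differ beyond their spread (limma adjusted p = 0.53 to 0.96). In the brightest APOE probe set no neighbours differed, but A498, the lowest, was below ACHN by 0.94 (adjusted p = 0.036) and below CAKI1 by 0.84 (adjusted p = 0.0477). NPC1 was highest in ACHN, 0.46 above A498 (adjusted p = 0.055), 0.52 above CAKI1 (adjusted p = 0.0391) and 0.64 above CAKI2 (adjusted p = 0.0129). NPC2 had the order CAKI1, ACHN, A498, CAKI2, in which no neighbours differed but CAKI2 was below CAKI1 (adjusted p = 0.0165) and ACHN (adjusted p = 0.0358). From the lowest to the highest line the brightest NPC1 probe set spanned 0.76 in A939572 and 0.52 in DMSO, and NPC2 0.83 in A939572 and 0.63 in DMSO.

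**Figure D4:**
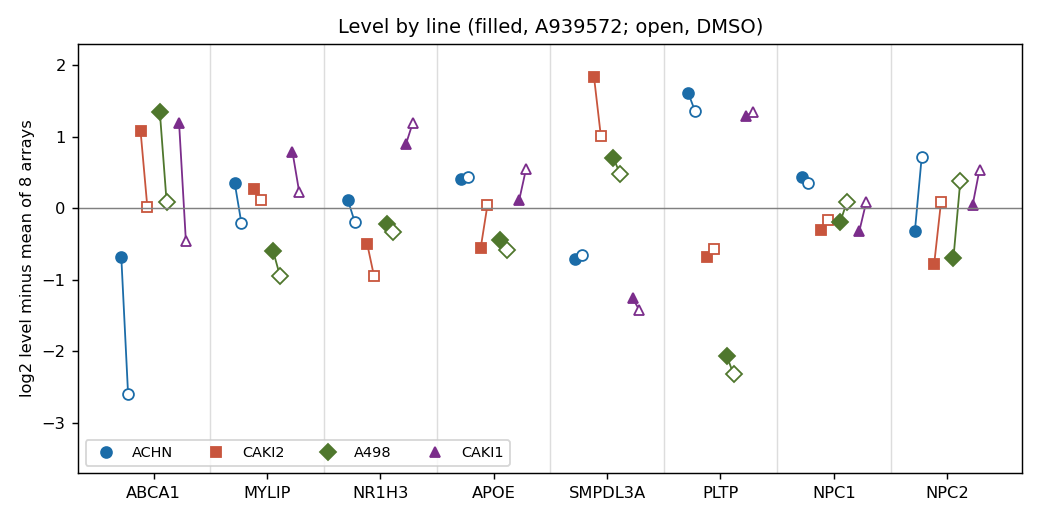
Level of each tested gene in each line, as log2(signal + 16) of the brightest probe set minus its mean over the 8 arrays (filled, A939572; open, DMSO; joined within a line). ACHN is the low line for ABCA1 and A498 for PLTP, SMPDL3A spreads from CAKI2 down to CAKI1, and NPC1 and NPC2 vary least between lines.

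Across the 8 arrays the genes most like ABCA1 were P4HB (Pearson r = 0.982), RNF113A (0.982) and EIF2S2 (0.979), and those most like NPC2 were ARHGEF26 (0.995), TMTC4 (0.982) and BSG (0.975). For MYLIP they were RNF115 (0.976), ZKSCAN8 (0.969) and RAB9A (0.965), and for NR1H3 FRYL (0.989), TPM2 (0.979) and APC (0.978). For APOE they were COPS7A (0.967), SHISA2 (0.958) and PTK7 (0.955), and for SMPDL3A LBH (0.986), MSX2 (0.983) and PTH2R (0.973). For PLTP they were FCGRT (0.987), SCRN1 (0.986) and ZNF33B (0.986), and for NPC1 HOXB4 (0.959), GDF11 (0.957) and KPNA6 (0.956). Each set is the top 3 of 12092 genes over 8 arrays that come in pairs from 4 lines, so such values describe these arrays only.

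Other genes of the pathway were read by the same rule. Of the other LXR targets on the list, 3 of 11 were bright enough, with 0 higher and 1 lower and a median of -0.55. LPCAT3, which builds polyunsaturated phospholipids, fell by 0.78 ± 0.32 (limma adjusted p = 0.00996), but had -0.11 when its probe sets were averaged (adjusted p = 0.59). SREBF1, named after its value was seen, had 0.07 ± 0.47 (adjusted p = 0.815), with 0.72 in CAKI2 and -0.33 to 0.10 in the other lines. Of the other exporters and HDL genes, 0 of 4 rose and 1 fell (median -0.31). The one that fell was the HDL receptor gene SCARB1 at -0.68 ± 0.38 (adjusted p = 0.017), which did not pass without ACHN (-0.50, adjusted p = 0.0717) or when its probe sets were averaged (-0.29, adjusted p = 0.417).

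Among sterol carriers and esterification genes 1 of 10 rose and 1 fell, and the median was -0.11. OSBP, an oxysterol binding protein that moves cholesterol to the Golgi, rose by 0.81 ± 0.36 (limma adjusted p = 0.00488), and its relative OSBPL1A fell by 1.28 ± 0.30 (adjusted p = 0.000487). Of the 2 measured receptors that MYLIP degrades, LRP8 fell by 0.45 ± 0.14 (adjusted p = 0.0305), a call lost when any 1 line was left out (adjusted p = 0.0535 to 0.111), and VLDLR had -0.20 ± 0.31 (adjusted p = 0.331). SREBP2 targets, which cells switch off when sterols are plentiful, fell in 6 of 7, with 0 higher and a median of -0.80, against 15.7% of all genes lower. IDI1 (-1.20 ± 0.33) and LSS (-0.94 ± 0.16) of cholesterol synthesis fell most. As the mean of its probe sets IDI1 had -0.53 (adjusted p = 0.0249), and LSS had -0.29 and did not pass (adjusted p = 0.26). Without the cell line as a block LPCAT3, SCARB1, OSBP, OSBPL1A, LRP8, IDI1 and LSS did not pass (adjusted p = 0.143 to 0.801).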

How the data were processed

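Total RNA was made into biotin-labelled cRNA and hybridized to 8 oligonucleotide arrays, per the labels' protocols. The deposited values are linear intensity signals, 1 per probe set, and the program that summarized them is not given in the sources used here. From the values, the authors had scaled the arrays: the mean intensity after trimming 2% at each end was 500.067 to 500.073. After removal of 62 control probe sets, log2(signal + 16) was quantile normalized in limma (3.58.1, R 4.3.3), and probe sets with a mean at or above 6.41, the median, were tested (27307). Probe sets with 1 symbol (41091; 1801 had several and 11721 none here) were named, 41037 of them by Entrez ID through RefSeq GRCh38.p14. The fit used lmFit and eBayes with trend and the cell line as a block, as the series design sets each treated array against its own DMSO array. Paired arrays deviated together (r = 0.775 to 0.828, against at most -0.03 between lines). Deviations were taken from the mean of each group over the lines, which by itself pulls r between lines down. Degrees of freedom were 9.85 and the median SE 0.18; the number of arrays limits the precision. P-values rest on the spread of the A939572 minus DMSO difference over these lines, which limma moderates with that of all probe sets tested.

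Members and lists were chosen with earlier results of these data known. Named are all member probe sets and, per other list, up to 2 called genes with the largest change, or the smallest p where none was called, and the 3 most correlated genes per member. Genes outside this rule, ITGAM, VIM and EGLN3 among them, were named after their values were seen. On data simulated for this comparison with 27307 probe sets and 200 changed, the fit recovered 32% of log2 changes of 1 and 54% of 1.5, and 3 of 81 calls were false. The real arrays gave 7088 calls, so there the adjustment cuts at a less strict p. The simulated rates therefore do not carry over to them. Alternatives were other scalings, offsets, filters, units of the fit and left-out lines. Promoters were scanned in Python 3.11.15, and figures drawn with matplotlib 3.10.9. The annotation had no probe set for NR1H2, which was not analysed here.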

Additional observations from a re-analysis of the deposited data

Results flagged for a closer look

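Among 51 groups of 4 values checked with Dixon's test (17 probe sets, each with its levels in A939572, its levels in DMSO and its differences), 2 had a value far from the others, where chance alone flags about 1 in 20 groups. ABCA1 in A939572 was, in the brightest probe set, at 12.11 (log2) in ACHN against 13.87 to 14.14 elsewhere. NPC1 in A939572 was, also in its brightest probe set, at 13.29 in ACHN and at 12.53 to 12.65 in the others.

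In 2 probe sets the lines moved in opposite directions by at least 0.5, which was not tested, since each line has 1 array a group. The dimmest tested MYLIP probe set had 0.75 in CAKI1 and -0.97 in CAKI2. The third APOE probe set had 2.03 in A498 and -0.96 in CAKI1.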

How the results depend on the processing

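ABCA1 kept its call in 14 of 15 alternatives in its brightest probe set, with values from 1.09 to 1.61, and in 11 of 12 in the second, and NPC2 kept its call in 14 of 15, from -0.99 to -0.79. The exception each time was the fit with no replicate block for the cell line, which called 0 member probe sets and 0 genes either way and 56 higher and 38 lower of all probe sets. Median centring called 4 member probe sets and 2 genes higher, MYLIP included. It made 60.4% of all calls higher, against 50.01% with quantile normalization. With probe sets of unsure specificity (IDs ending in _s_at, _x_at or _a_at) left out, 1 member probe set was higher, and over all probe sets 2056 were higher and 1861 lower. With any 1 line left out the counts were 2 probe sets and 1 gene higher and 1 and 1 lower, and over all probe sets 2383 to 2881 higher and 2368 to 2832 lower. The F test over lines called 6 member probe sets, 5 genes and 9493 probe sets in all with the stricter filter, and 5, 5 and 8651 without those of unsure specificity, both of which test fewer. With 1 array left out it called 7 to 11 member probe sets, 5 to 7 genes and 12120 to 13300 probe sets in all. Signs turned in 4 values that never passed: the dimmest tested MYLIP probe set (-0.31 to 0.26 with 1 line left out, positive without CAKI2), APOE as the mean of its probe sets (0.31), the third APOE probe set (-0.15 to 0.86, negative without A498) and CYP39A1 (-0.38 to 0.041, positive without ACHN). For these the cause was not tested.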
